A study of Mus musculus with 4 samples.

Results

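The genes described here encode the oxidative phosphorylation machinery from the nucleus. They were taken by symbol from the deposited feature lists, as every gene starting with Nduf, Uqcr, Atp5, Cox4i, Cox5, Cox6, Cox7 or Cox8 and not ending in -ps, which gave 88 of the 28006 features. By their known roles, 36 of the 88 encode subunits of complex I (NADH dehydrogenase), 7 are complex I assembly factors (*Ndufaf1* to *Ndufaf7*), 8 belong to complex III (cytochrome bc1), 19 to complex IV (cytochrome c oxidase) and 15 to complex V (ATP synthase). Of the other 3, *Cox7a2l* helps to join complexes III and IV into supercomplexes, and *Atp5s* and *Atp5sl* are related to complex V by name. *Ndufa4* and *Ndufa4l2* were counted with complex IV, where the NDUFA4 protein is found. All 88 are protein coding and lie on 19 chromosomes, with 3 of them (*Ndufa1*, *Ndufb11* and *Cox7b*) on the X chromosome.

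Oxidative phosphorylation passes electrons from NADH and succinate through complexes I to IV to oxygen, pumps protons across the inner mitochondrial membrane, and lets them return through the ATP synthase. All but complex II are mosaics, because a few core subunits are made from mitochondrial DNA and all others from nuclear genes. Several complex IV subunits exist as a widely used isoform and a tissue-restricted one, such as *Cox4i1* and *Cox4i2*, *Cox6a1* and *Cox6a2*, or *Ndufa4* and *Ndufa4l2*, and *Ndufa4l2* is a known target of hypoxia-inducible factor. In bone, cells of the osteoblast lineage and osteoclasts are known for high demands on energy metabolism, and osteoclasts are rich in mitochondria.

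The study asked what becomes of *Cxcl12*-expressing reticular cells of the marrow when the femoral marrow is destroyed mechanically and bone forms in its place. Mice of the genotype Cxcl12-iCreER; R26R(tdTomato/+) received tamoxifen 7 days before surgery, and tdTomato+ cells were sorted from the femurs 7 days after it. The ablated right femur (ABL) was compared with the left femur of the same mice (CONT), which had no surgery. Each of 2 replicates gave 1 CONT and 1 ABL library, with Chromium v2 reagents for replicate 1 and v3 for replicate 2, so replicate and chemistry cannot be told apart. Every group thus carried the same transgenes and had the same tamoxifen dose schedule, and no group of mice without surgery on either leg was sampled here. The driver is a bacterial artificial chromosome transgene in a single mouse line, the cells of replicate 1 were pooled from several mice, and ages were not given in the labels.

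The libraries held 22889380 to 44784072 UMIs (unique molecular identifiers, 1 per captured transcript), and 1459 to 3433 barcodes per library were taken as cells, with a median of 5714 and 7338 UMIs per cell in replicate 1 and 12896 and 12283 in replicate 2 (CONT and ABL). Clusters were called by marker genes. The names below (reticular, pre-osteoblast, granulocyte and so on) stand for reticular-like cells and the like, and 4 groups whose markers gave no name are called by a leading gene. Of these, the Elane-led cells scored highest for B-lineage markers (1, next class 0.93). With only the study's cell filters, an *Elane*-led cluster of 144 cells was named B-lineage. The Acta2-led cells, with *Spp1* as first gene, scored highest for pre-osteoblast markers (0.785, next class 0.776). A *tdTomato* UMI was found in 95.7 to 97.8% of the mesenchymal cells of each library. *Xist*, which is transcribed from the inactive X chromosome of females, was found in 49.8% (CONT) and 81.3% (ABL) of the mesenchymal cells in replicate 1, but in 71.9% (CONT) and 0.0553% (ABL) in replicate 2. The libraries of replicate 2 thus differed in a sex-linked transcript that cells from both femurs of the same mice would share, and what follows compares libraries as labelled, with each replicate's values beside the pooled ones. CONT and ABL shared 5 cell barcodes in replicate 1 and 1 in replicate 2. Levels are given as CPM, the UMIs of a gene per 1000000 UMIs of all cells of a class in a library, so a lower level can come from fewer transcripts of the gene or more of others. Intervals are 95% exact Poisson or binomial and cover counting error only. The p-values rest on the spread between the libraries of each test, with each gene's spread drawn toward that of other genes. A p-value is thus no measure of a gene's own spread alone.

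In reticular cells, which made up most of the mesenchymal cells of CONT, the summed level of the 88 genes was 19474 CPM (interval 19359 to 19588, 1141 cells) in CONT and 20961 CPM (20795 to 21128, 391 cells) in ABL of replicate 1. In replicate 2 it was 10657 CPM (10618 to 10697, 1962 cells) in CONT and 17075 CPM (16922 to 17229, 349 cells) in ABL. The CONT library of replicate 2 thus stood below the 3 others, and ABL was 1.08 times CONT in replicate 1 and 1.60 times CONT in replicate 2. Within single cells, the median share of UMIs from these genes was 1.88% and 2.00% in replicate 1 and 1.04% and 1.51% in replicate 2 (CONT and ABL).

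**Figure D1:**
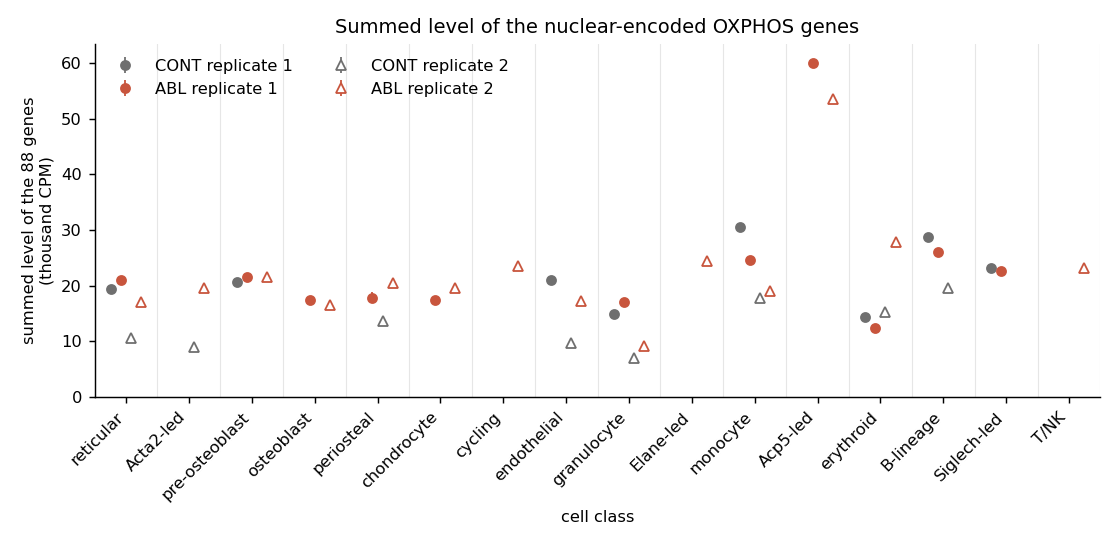
The vertical axis is the summed level of the 88 genes in CPM divided by 1000, and the horizontal axis is the cell class. Points are libraries (grey CONT, red ABL, circles replicate 1, triangles replicate 2) and bars, mostly smaller than the points, are 95% Poisson intervals. The Acp5-led cells of both ABL libraries lie highest, at 60018 and 53549 CPM. CONT replicate 2 is the lowest library in reticular, Acta2-led, endothelial, granulocyte, monocyte, B-lineage and periosteal cells, but not in erythroid cells.

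Other transcripts moved with these genes. In reticular cells the cytosolic ribosomal protein genes were at 135763 and 142508 CPM in replicate 1 and at 64334 and 117099 CPM in replicate 2 (CONT and ABL), so that ABL was 1.05 and 1.82 times CONT. The nuclear long non-coding RNA *Malat1* was at 35244, 25546, 40493 and 27631 CPM (replicate 1 CONT and ABL, replicate 2 CONT and ABL), and so was highest in the library where the oxidative phosphorylation genes were lowest. The summed UMIs of the mitochondrially encoded subunits were 1.06 times CONT in replicate 1 and 1.42 times in replicate 2. Granulocyte markers in the reticular cells summed to 10360 and 6208 CPM in replicate 1 and to 150.5 and 116 CPM in replicate 2, and the estimated share of free RNA was 8.28%, 6.92%, 0.694% and 0%. The part of RNA make-up, foreign RNA and depth in the difference of the oxidative phosphorylation genes was not tested.

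No gene of the 82 that passed the filter on low counts was called between ABL and CONT in reticular cells (edgeR quasi-likelihood test after TMM scaling, which sets the bulk of genes equal between sums, with the replicate as a block, 1 residual degree of freedom, Benjamini-Hochberg adjusted p under 0.05), against 1.88% of all tested genes called higher and 1.47% called lower. The 6 members under that filter were the restricted forms *Cox6a2*, *Cox7a1*, *Cox7b2*, *Cox8b*, *Cox8c* and *Ndufa4l2*. At an unadjusted p under 0.05 there were 2, and DESeq2 called 0. The 2 were *Ndufv3*, a complex I subunit, with a log2 change of 0.58 ± 0.27 (SE; adjusted p = 0.312, edgeR), and *Atp5g1*, which encodes the c subunit of the ATP synthase ring, with 0.58 ± 0.28 (adjusted p = 0.356, edgeR). The median log2 change of the 82 was 0.28, against −0.01 over all tested genes, and 76 of the 82 had a positive value. This median rested on replicate 2, where ABL was above CONT for 79 of 84 genes with a median log2 ratio of 0.61, whereas in replicate 1 it was above CONT for 45 of 82 with a median of 0.03. The ribosomal protein genes had medians of −0.04 and 0.76 in the same replicates.

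**Figure D2:**
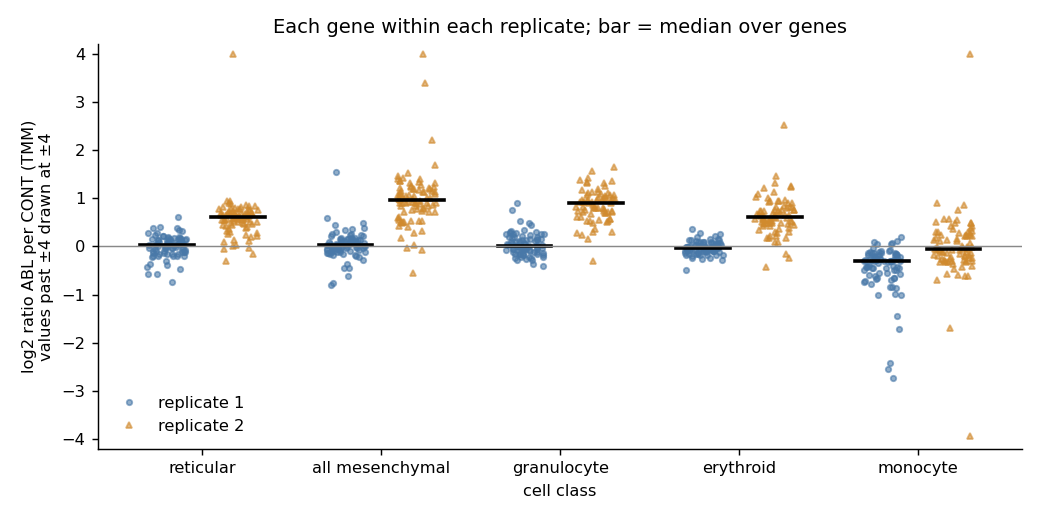
Each point is 1 gene, its height the log2 ratio of ABL to CONT (TMM scaled) within replicate 1 (circles) or replicate 2 (triangles), by cell class, with values past 4 drawn at 4, and the bar is the median over genes. In reticular cells the medians are 0.03 and 0.61, in granulocytes 0.01 and 0.90, and in monocytes −0.31 and −0.06.

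The genes with most UMIs in each complex showed the same picture one by one. *Ndufa2*, an accessory subunit of complex I, was at 445 and 487 CPM in replicate 1 and at 209 and 342 CPM in replicate 2 (CONT and ABL; log2 change 0.32 ± 0.33), and *Ndufa13* was at 385 and 432 and at 204 and 406 CPM (0.48 ± 0.34). Among complex III subunits, *Uqcrh* was at 584 and 514 and at 252 and 443 CPM (0.21 ± 0.36), and *Uqcrb* at 346 and 398 and at 189 and 286 CPM (0.30 ± 0.32). In each of these 4 genes CONT replicate 2 was the lowest library. *Cox4i1*, the common form of a regulatory complex IV subunit, was at 910 and 892 CPM in replicate 1 and at 339 and 645 CPM in replicate 2 (0.35 ± 0.39). *Cox6c*, another subunit of complex IV, was at 788 and 773 and at 495 and 633 CPM (0.06 ± 0.37). Of complex V, *Atp5e*, the epsilon subunit, had the highest fitted change of the 8, at 551 and 794 and at 400.2 and 777 CPM (0.64 ± 0.37, adjusted p = 0.48, edgeR). *Atp5l*, the g subunit, was at 882 and 736 and at 323 and 467 CPM (0.03 ± 0.37). All 8 adjusted p-values were above 0.05.

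By complex, the fitted values in reticular cells were positive for 36 of 36 complex I subunits (median log2 change 0.31), 8 of 8 of complex III (0.31), 12 of 13 of complex IV (0.21) and 15 of 15 of complex V (0.31). The 7 complex I assembly factors, which are not part of the finished enzyme, had 3 positive values and a median of −0.00. None of these single values passed the test, and the difference between subunits and assembly factors was not tested.

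The reticular cells fell into 7 clusters in replicate 2 and 5 in replicate 1, each named by its leading gene. In replicate 2 the summed level was higher in ABL than in CONT in all 7, with CONT between 5084 CPM in the *Gm26917*-led cluster and 12448 CPM in the *Aldh1a2*-led one, and ABL between 10456 CPM in the *Arrdc3*-led cluster, with 13 cells, and 18067 CPM in the *Hspa1b*-led one. In replicate 1 it was higher in ABL in 3 of 5, with CONT between 17776 and 22001 CPM and ABL between 17211 and 23111 CPM. The clusters of a replicate share their 2 libraries and are not replicates of the condition.

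**Figure D3:**
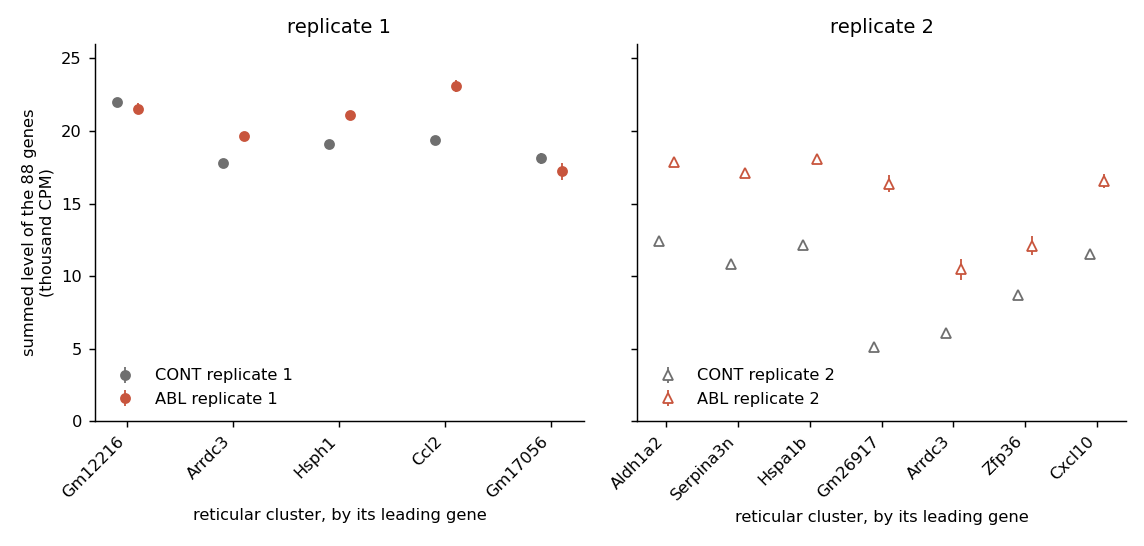
The vertical axis is the summed level of the 88 genes in CPM divided by 1000 for CONT (grey) and ABL (red) in each reticular cluster, named by its leading gene, for replicate 1 (left) and replicate 2 (right), with 95% Poisson intervals. In replicate 2 all 7 ABL points lie above their CONT points, and in replicate 1 3 of 5 do.

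Over all mesenchymal cells as 1 sum, the summed level was 19504 CPM in CONT and 20773 CPM in ABL of replicate 1, and 10626 and 20156 CPM in replicate 2. Here the mix of classes differed as well as the cells, since *Col1a1*, the main collagen of bone, was at 1918 and 16042 CPM in replicate 1 and at 373 and 20507 CPM in replicate 2, and *Cxcl12* at 15542 and 8946 and at 16612 and 1773 CPM. The median log2 ratio of the members was 0.02 in replicate 1 and 0.95 in replicate 2, beside 0.13 and 1.18 for the ribosomal protein genes. Of 85 genes tested, 1 was called higher and 0 lower (edgeR, replicate block), where 2.56% of all tested genes were called higher and 1.02% lower. The called gene was *Ndufa4l2*. Another restricted complex IV subunit, *Cox4i2*, had 1.23 ± 0.48 on the log2 scale and did not pass (adjusted p = 0.192, edgeR).

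*Ndufa4l2* lies at chr10:127514967-127517154 on the plus strand (GRCm38, GENCODE M21). In all mesenchymal cells it was at 8.94 CPM in CONT and 27.6 CPM in ABL of replicate 1, and at 3.15 and 329 CPM in replicate 2. Both ABL libraries were above both CONT libraries, but ABL replicate 2 stood far above the rest. The log2 change was 4.17 ± 1.05 (adjusted p = 0.041, edgeR), with ratios of 1.55 in replicate 1 and 6.83 in replicate 2 on the log2 scale. After thinning each cell to 2000 UMIs, a UMI of *Ndufa4l2* was found in 1.16% and 3.04% of mesenchymal cells in replicate 1 and in 0.292% and 20.6% in replicate 2 (1.78%, 5.93%, 1.32% and 36.0% before thinning), against at most 0.313% of granulocytes. The call passed narrowly, and without the replicate block the adjusted p was 0.451, with DESeq2 0.212, and with other clustering resolutions 0.137 and 0.562, over a range of 4.07e-08 (no TMM) to 0.562 among the alternatives with all libraries. The block is the shared replicate number of the CONT and ABL libraries.

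Few of the cells behind this value were reticular. Of the 8438 *Ndufa4l2* UMIs in mesenchymal cells of ABL replicate 2, 48.0% were in pre-osteoblasts, 20.1% in periosteal cells, 14.3% in chondrocytes, 11.7% in cycling cells and 0.569% in reticular cells. In reticular cells the gene was at 1.40, 1.73, 0.769 and 17.2 CPM (replicate 1 CONT and ABL, replicate 2 CONT and ABL), too low to pass the filter. In pre-osteoblasts it was at 0 CPM in CONT replicate 1 (42 cells, where a count of 0 allows up to 14.0 CPM), 2.74 CPM in ABL replicate 1 (87 cells) and 727 CPM in ABL replicate 2 (389 cells), so the ABL libraries of the replicates differed more from each other than ABL from CONT in replicate 1. Chondrocytes likewise had 0 UMIs in the 15 cells of ABL replicate 1 (up to 14.9 CPM allowed) and 933 CPM in ABL replicate 2, while 6 cells of CONT replicate 1 held 17 UMIs. In ABL replicate 1 there were 167 UMIs in all, and 44.9% of these came from 9 mural cells.

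The pre-osteoblast cells of the 2 replicates had different leading genes. Those of replicate 1 were led by *Wif1*, *Spp1*, *Dmp1* and *Kcnk2*, and those of replicate 2 by *Fmod*, *Lsp1*, *Ndufa4l2* and *1500015O10Rik*, although the 88 genes had been left out of the clustering. At a clustering resolution of 0.4 no cluster of replicate 2 was named pre-osteoblast, and 358 of these cells went to a cluster named chondrocyte together with 70 chondrocytes, so the split between both names in replicate 2 depended on the resolution. In replicate 2, 3 periosteal clusters differed in the gene too, with 804 CPM in the *C1qtnf3*-led cluster (55 cells), 74.8 CPM in the *Clec3b*-led one (453 cells) and 32.1 CPM in the *Prg4*-led one (193 cells) of ABL. *Ndufa4l2* was the one member called higher in periosteal than in reticular cells, with 182, 26.2 and 188 TMM-scaled CPM against 1.78, 0.858 and 18.3 (ABL replicate 1, CONT replicate 2, ABL replicate 2; log2 change 4.61 ± 0.57, adjusted p = 4.9e-07, edgeR), and the call held under every alternative run for it. The periosteal values came from 15 UMIs in 11 cells, 4 UMIs in 14 cells and 1693 UMIs in 701 cells, in the same order.

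As a share of the UMIs of *Ndufa4* and *Ndufa4l2* together, *Ndufa4l2* took 72.8% in chondrocytes, 65.0% in pre-osteoblasts and 56.2% in cycling cells of ABL replicate 2. It took 36.6% in Acta2-led cells of ABL replicate 2 and 40.6% in those of CONT replicate 2, so this class did not separate the conditions. In osteoblasts the share was 5.94% and 4.33% (ABL replicates 1 and 2), and in reticular cells between 0.276% and 3.55%. The 8 and 9 mural cells of replicate 1 had 73.1% (CONT) and 92.6% (ABL). The 2 transcripts may be captured with different efficiency, so a share is comparable between classes and is no ratio of molecules.

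**Figure D4:**
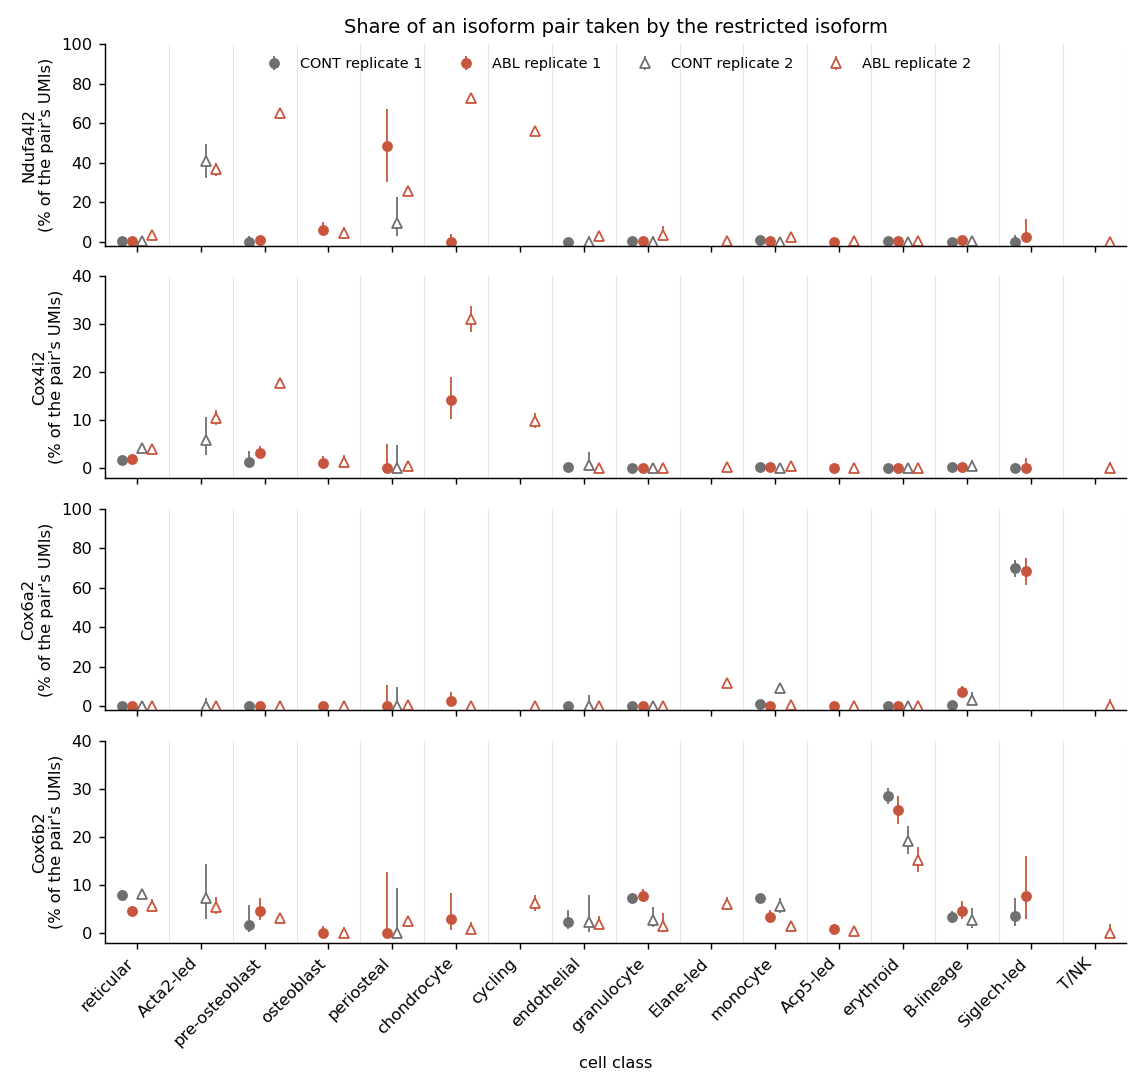
Each panel gives the share of an isoform pair's UMIs (%) taken by the restricted form, by cell class and library (grey CONT, red ABL, circles replicate 1, triangles replicate 2, bars 95% binomial intervals). *Ndufa4l2* and *Cox4i2* are high in chondrocytes and pre-osteoblasts of ABL replicate 2, *Cox6a2* takes 70.1% and 68.6% in Siglech-led cells, and *Cox6b2* is highest in erythroid cells of every library.

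*Cox4i2* (chr2:152754173-152765037, plus strand) was a transcript of mesenchymal cells. In reticular cells it was at 15.4 and 17.6 CPM in replicate 1 and at 14.99 and 26.5 CPM in replicate 2, and in granulocytes at 0.898, 0.353, 0 and 0 CPM. After thinning, a UMI was found in 2.89%, 4.35%, 2.80% and 4.298% of reticular cells (6.84%, 10.2%, 15.5% and 15.2% before) against 0.101% or less of granulocytes, the background class. It was at 11.4, 35.6 and 163 CPM in pre-osteoblasts (CONT and ABL of replicate 1, ABL of replicate 2). Chondrocytes of the ABL libraries had 153 and 269.5 CPM. This was not particular to ABL, since chondrocytes of CONT held 20 UMIs in 6 cells (replicate 1) and 26 UMIs in 1 cell (replicate 2). Nor was it particular to chondrocytes. Mural cells of replicate 1 held 15 UMIs in 8 cells (CONT) and 27 UMIs in 9 cells (ABL). The periosteal level of 4.39 CPM came from ABL replicate 2 alone (49 UMIs, 701 cells). Elsewhere this class was small and held 0 UMIs (CONT replicate 1, 8 cells; ABL replicate 1, 11; CONT replicate 2, 14). There a count of 0 allows up to 74.1, 53.6 and 29.2 CPM, so a level like the reticular one is not excluded. Its share of the *Cox4i1* and *Cox4i2* UMIs was 1.66% to 4.23% in reticular cells, 14.3% and 31.1% in chondrocytes, and at most 0.503% in blood cell classes.

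*Cox4i2* was also the member called lower against reticular cells in most class tests. It was lower in erythroid cells (log2 change −3.23 ± 0.39), granulocytes (−3.67 ± 0.59), monocytes (−2.79 ± 0.42), B-lineage cells (−2.58 ± 0.41), endothelial cells (−3.69 ± 0.57) and periosteal cells (−2.65 ± 0.76, adjusted p = 0.017, edgeR). In the granulocyte test the TMM-scaled values were 10.6, 10.9, 9.95 and 15.9 CPM in reticular cells against 1.61, 0.52, 0 and 0 in granulocytes, with no overlap. The periosteal call was lost without ABL replicate 2 (adjusted p = 0.304, edgeR).

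Blood cells that came through the sort were compared between ABL and CONT in the same way. In granulocytes the summed level was 14830 and 16992 CPM in replicate 1 and 6916 and 9065 CPM in replicate 2 (CONT and ABL). Of 76 genes tested 0 were called, against 0.513% of all tested genes higher and 0.911% lower, with 0 members at an unadjusted p under 0.05 and 0 by DESeq2. The median log2 ratios were 0.01 and 0.90, and the ribosomal protein genes had 0.18 and 0.76. In erythroid cells the level was 14345 and 12296 CPM in replicate 1 and 15188 and 27905 CPM in replicate 2. There 0 of 79 genes were called (0.441% of all tested genes higher, 0.375% lower), with 0 at an unadjusted p under 0.05 and 0 by DESeq2, and medians of −0.03 and 0.61 beside 0.01 and 0.74 for the ribosomal protein genes. So in replicate 2 ABL was above CONT in reticular cells, granulocytes and erythroid cells alike, and in replicate 1 the median ratio was near 0 on the log2 scale in all 3.

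The difference of the ablation effect between reticular cells and granulocytes was tested directly (edgeR, interaction of class and condition with the library as a block). Of 83 members 0 were called, with 0 of all genes called (0% higher and 0% lower, and 64 and 32 at an unadjusted p under 0.05), 0 members at an unadjusted p under 0.05 and 0 by DESeq2. With 0 genes called among all tested, it does not show that the effects were alike.

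The monocytes of CONT and ABL were not like cells, and both calls among them lay close to the threshold. Granulocyte markers in them summed to 17069 and 7018 CPM in replicate 1 and to 179778 and 152.4 CPM in replicate 2 (CONT and ABL), while the *Elane*-led cells of ABL replicate 2, at 157910 CPM for these markers, formed a class of their own. The part of this in the values below was not tested. The summed level of the members was 30463 CPM in CONT and 24579 CPM in ABL of replicate 1, and 17763 and 19015 CPM in replicate 2, with median log2 ratios of −0.31 and −0.06 beside −0.48 and −0.03 for the ribosomal protein genes. Of 81 genes tested, 2 were called lower and 0 higher (edgeR, replicate block), against 3.23% of all tested genes lower and 4.39% higher. *Cox6a2*, the heart and muscle form of COX6A, was at 10.6 and 1.74 CPM in replicate 1 and at 30.6 and 2.05 CPM in replicate 2 (log2 change −3.49 ± 0.62, adjusted p = 0.032, edgeR). *Cox6b2*, described as the testis form of COX6B, was at 65.1 and 23.5 and at 23.8 and 7.67 CPM (−1.59 ± 0.35, adjusted p = 0.047). Both were lower in ABL in both replicates, although ABL replicate 1 and CONT replicate 2 were at the same level for *Cox6b2*.

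Few cells carried the *Cox6a2* value. In CONT replicate 2 its 63 UMIs were in 6 of 80 monocytes, in CONT replicate 1 its 36 UMIs were in 13 of 365, and the ABL libraries had 2 and 4 UMIs. The monocyte class was also made of different clusters in the libraries, led by *Jchain*, *Ms4a4c* and *C1qa* in CONT replicate 1, by *C1qa* and *Ms4a4c* in ABL replicate 1, by *Elane*, *Prtn3* and *F13a1* in CONT replicate 2 and by *C1qa* in ABL replicate 2. With only the filters on genes and mitochondrial UMIs that the study's methods give, and also without the replicate block, 0 of the 2 genes were called.

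The larger differences in these data were between cell classes. Each class was compared with the reticular cells of the same libraries (edgeR, library as a block), and all 7 tests share the reticular sums. The class with the highest summed level was led by *Acp5*, the tartrate-resistant acid phosphatase of osteoclasts. It formed a class of its own in the ABL libraries, with 20 cells at 60018 CPM in replicate 1 and 82 cells at 53549 CPM in replicate 2. These were 2.86 and 3.14 times the reticular level of the same library. The Acp5-led cells were highest for 72 of 86 members among the 11 classes of ABL replicate 1 and for 76 of 88 among the 14 of ABL replicate 2. With 2 libraries, both ABL, the class was not tested. *Acp5* was also a leading gene of the *Jchain*-led cluster of CONT replicate 1, whose 171 cells were counted among its 365 monocytes. In CONT replicate 1, monocytes were highest for 41 of 86 members and B-lineage cells for 30, and in CONT replicate 2 B-lineage cells for 38 of 85.

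In erythroid cells 60 of 82 members were called higher than in reticular cells and 1 lower, where 30.6% of all tested genes were called higher and 41.9% lower. The median log2 change was 0.88 against −0.31 over all genes. By complex the higher genes were 22 of 36 of complex I, 3 of 7 assembly factors, 8 of 8 of complex III, 12 of 13 of complex IV and 14 of 15 of complex V. The 10 with the highest change were *Cox6b2*, *Uqcrfs1*, *Atp5g1*, *Atp5f1*, *Cox5b*, *Ndufb9*, *Ndufab1*, *Ndufaf4*, *Atp5b* and *Cox5a*. *Uqcrfs1*, the Rieske iron-sulfur protein of complex III, was at 63.0, 48.2, 28.8 and 38.3 TMM-scaled CPM in reticular cells and at 223, 212, 117 and 168 in erythroid cells (replicate 1 CONT and ABL, replicate 2 CONT and ABL; log2 change 2.02 ± 0.16, adjusted p = 4.8e-06, edgeR). *Cox5b*, a zinc-binding complex IV subunit, was at 218, 223, 98.2 and 164 against 595, 584, 401 and 591 (1.68 ± 0.18). In these TMM-scaled values the classes did not overlap in either gene. The scaling raised the erythroid values relative to the reticular ones, so this need not hold in plain CPM.

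The counts for erythroid cells and granulocytes depended on the scaling. TMM scaling assumes that most genes do not differ between the sums, and its factors were 0.504 to 1.09 in erythroid and 1.30 to 1.45 in reticular sums. Without it the median of all genes in erythroid cells moved to −1.24 on the log2 scale, that of the members to −0.03, and 4 members were called higher and 11 lower. The share of all tested genes called without TMM was not counted, so here and below such counts show only their dependence on the scaling. On the plain CPM scale, the summed level in erythroid cells was 0.737 and 0.587 times that of reticular cells in replicate 1 and 1.43 and 1.63 times in replicate 2. The direction against the total of UMIs thus differed between replicates. The erythroid class also differed in its clusters. In replicate 1 it included *Tmcc2*-led cells (179 of 468 in CONT and 48 of 147 in ABL). In replicate 2 it was the *Hba-a1*-led cluster of each library (64 and 43 cells). The part of this difference in the levels was not tested.

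In granulocytes 38 of 83 members were called higher and 2 lower under TMM (28.5% of all tested genes higher, 26.9% lower; median 0.56 against 0.01), but 1 higher and 38 lower without TMM, where the median of all genes was −1.27 and that of the members −0.73, and the summed CPM were 0.531 to 0.811 times those of reticular cells. *Ndufb7*, an accessory subunit of complex I, had the highest value, with 99.5, 110.3, 67.9 and 101 TMM-scaled CPM in reticular cells and 565, 447, 225 and 434 in granulocytes (log2 change 2.09 ± 0.26, adjusted p = 0.00041, edgeR). It was followed by *Cox5a* (106, 107, 56.6 and 93.4 against 553, 544, 131 and 275; 1.88 ± 0.30), *Atp5f1*, *Ndufv3*, *Ndufaf7*, *Ndufa8*, *Ndufa1*, *Cox5b*, *Cox7a2* and *Cox6b1*, at 1.11 to 1.68. *Cox6b1* turned to −0.18 without TMM. Lower were *Cox4i2* and *Ndufaf2*, a complex I assembly factor (30.2, 29.4, 23.6 and 23.4 against 10.8, 12.5, 4.74 and 7.76; −1.59 ± 0.28). The higher count was 10 without CONT replicate 1, 16 without ABL replicate 1, 24 without CONT replicate 2 and 20 without ABL replicate 2, and it was 52 without both libraries of replicate 2. The granulocytes of replicate 1 included clusters led by genes of granulocyte precursors, such as *Elane* and *Fcnb* (238 of 990 cells in CONT and 70 of 320 in ABL), while those of replicate 2 were 1 *Retnlg*-led cluster in each library (118 and 107 cells). The part of this difference in the levels was not tested.

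Monocytes and B-lineage cells had a positive median change of the members, and more members called higher than lower, in both scalings. The monocytes of CONT replicate 2 were the cluster led by *Elane*, *Prtn3* and *F13a1* given above. In monocytes 29 of 85 were called higher and 2 lower (21.1% of all tested genes higher, 25.0% lower; median 0.45 against −0.00), and 18 higher and 3 lower without TMM. *Cox5a*, whose product binds the matrix side of complex IV, was at 159.6, 160.1, 86.5 and 144 TMM-scaled CPM in reticular cells and 684, 640.0, 422 and 634 in monocytes (2.13 ± 0.18, adjusted p = 0.00042, edgeR). After *Cox6a2* (5.13 ± 1.59, adjusted p = 0.04) and *Cox5a* came *Uqcrfs1* (1.31 ± 0.21), *Atp5f1*, *Cox5b*, *Ndufb7*, *Ndufb8*, *Atp5g2*, *Atp5g1* and *Uqcrq* at 0.82 to 1.05, and *Cox4i2* and *Ndufaf2* (−0.93 ± 0.21) were lower. The higher count was 5 without CONT replicate 1, 8 without ABL replicate 1, 6 without CONT replicate 2 and 21 without ABL replicate 2, so in monocytes it rested on few libraries.

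In B-lineage cells, from 3 libraries, 28 of 83 were called higher and 2 lower (26.4% of all tested genes higher, 30.6% lower; median 0.43 against −0.04), and 36 and 1 without TMM. The highest was *Cox6a2* (5.02 ± 0.92), at low levels of 0.949, 1.03 and 0 TMM-scaled CPM against 6.74, 44.2 and 8.75 (CONT and ABL of replicate 1, CONT of replicate 2). ABL replicate 1 thus stood far above the other B-lineage sums. Then came *Atp5sl* (6.07, 9.26 and 7.72 TMM-scaled CPM against 22.1, 28.1 and 35.0; 1.90 ± 0.28), *Cox5a* (167, 171 and 96.7 against 590.1, 455 and 283; 1.60 ± 0.22) and *Uqcrfs1* (88.8, 69.3 and 42.4 against 245, 206 and 128; 1.54 ± 0.20). *Ndufaf4*, *Cox7a2l*, *Ndufs8*, *Atp5g2*, *Ndufa12* and *Cox5b* followed at 0.92 to 1.22, and *Cox4i2* and *Ndufb2* (−0.72 ± 0.20), a small subunit of complex I, were lower. The higher count was 7 without CONT replicate 1 and 11 without ABL replicate 1. *Cox5a* and *Uqcrfs1* were thus among the 10 highest of erythroid, monocyte and B-lineage cells.

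**Figure D5:**
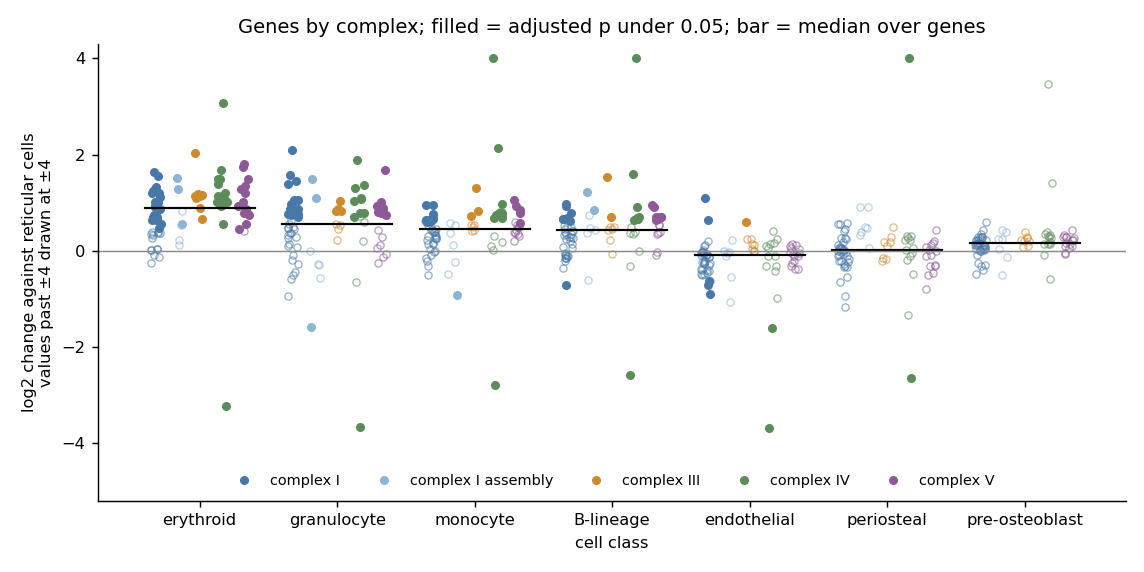
Each point is 1 gene, its height the log2 change of a cell class against reticular cells (edgeR, TMM scaled), coloured by complex, filled where the adjusted p was under 0.05, with values past 4 drawn at 4, and the bar is the median over genes. The medians are 0.88 in erythroid cells, 0.56 in granulocytes, 0.45 in monocytes and 0.43 in B-lineage cells, against −0.09 in endothelial, 0.02 in periosteal and 0.17 in pre-osteoblast cells, and the signs of the first 2 depend on the scaling.

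Among the other cells of the bone, few members were called against reticular cells. Few calls do not show that levels were alike, least of all in pre-osteoblasts, where no gene of any kind was called. In endothelial cells 3 of 83 members were called higher and 5 lower (14.8% and 15.3% of all tested genes), with *Ndufa8* (105, 54.9 and 90.2 TMM-scaled CPM against 223, 103 and 213; 1.09 ± 0.19, adjusted p = 0.003, edgeR), *Ndufc2* (0.64) and *Uqcrfs1* (0.60) higher, and *Cox4i2*, *Cox6b2* (−1.61 ± 0.33), *Ndufb2* (−0.90 ± 0.21), *Ndufs4* (−0.70) and *Ndufa13* (−0.63) lower. Without CONT replicate 1 the higher count was 1. In periosteal cells 1 of 83 was called higher and 1 lower, the *Ndufa4l2* and *Cox4i2* values given above (4.75% of all tested genes higher, 6.66% lower; median 0.02 against −0.12). In pre-osteoblasts 0 of 83 were called in either direction, with 0% of all tested genes called, 1 member at an unadjusted p under 0.05 (*Ndufa4l2*, 3.47 ± 1.38, adjusted p = 0.428, edgeR) and 0 by DESeq2. Their summed levels were 20570, 21536 and 21604 CPM (CONT and ABL of replicate 1, ABL of replicate 2), and osteoblasts of the ABL libraries had 17460 and 16428 CPM.

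*Cox6a2* (chr7:128205435-128206387, minus strand) was found mainly in blood cells. In the Siglech-led cells, named for a lectin of plasmacytoid dendritic cells, it took 70.1% of the *Cox6a1* and *Cox6a2* UMIs in CONT replicate 1 (61 cells) and 68.6% in ABL replicate 1 (24 cells), at 1022 and 840.5 CPM. A UMI was found in 82.0% and 79.2% of these cells (CONT and ABL), and in 68.9% and 58.3% after thinning, against at most 0.512% of thinned reticular cells. It took 12.1% in Elane-led cells of ABL replicate 2, 0.972% to 7.42% in B-lineage cells and 0.281% to 9.55% in monocytes, and reticular cells had at most 1.04 CPM. *Cox7a1*, the muscle form of COX7A, was at 39.4 and 52.0 CPM in Acp5-led cells against 1.75 to 2.15 CPM in reticular cells. The testis or muscle forms *Cox7b2*, *Cox8b* and *Cox8c* had 2, 7 and 3 UMIs in all cells.

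*Cox6b2* (chr7:4751792-4753094, minus strand) had its highest level in erythroid cells in every library. It was at 145, 105, 80.8 and 113 CPM in erythroid cells and at 35.7, 23.5, 18.5 and 22.6 CPM in reticular cells (replicate 1 CONT and ABL, replicate 2 CONT and ABL), a log2 change of 3.07 ± 0.22 (adjusted p = 2.5e-06, edgeR) that kept its direction in raw CPM. After thinning, 20.1%, 12.9%, 7.81% and 14.0% of erythroid cells had a UMI (46.8%, 38.8%, 42.2% and 67.4% before), against 6.13%, 3.84%, 3.41% and 2.87% of reticular cells (15.2%, 15.1%, 18.6% and 16.05% before) and 4.55%, 4.06%, 0% and 0.935% of granulocytes. Of the UMIs of *Cox6b1* and *Cox6b2*, *Cox6b2* took 28.7% (interval 27.0 to 30.3), 25.6%, 19.3% and 15.3% in erythroid cells, above its 4.59% to 8.17% in reticular cells in every library. Erythroid marker genes summed to 13986, 12194, 319 and 2183 CPM within the reticular cells, and how much of the reticular *Cox6b2* came from them was not tested. The 250 bases upstream of both genes are shown as a description (RefSeq, GRCm38.p6, minus strand, 5′ to 3′, chr7:30626115-30626364 for *Cox6b1* and chr7:4753095-4753344 for *Cox6b2*). Capitals mark the letters CCGGAAG, the core bound by GABPA (nuclear respiratory factor 2) and other ETS factors, found on the opposite strand 28 bases upstream of the RefSeq start of *Cox6b1*. That start lies 37 bases from the GENCODE one. These letters were in 11 of 70 member windows, so most members lacked them, as *Cox6b2* did. The window of *Cox6b2* held GGCGGG, which that of *Cox6b1* lacked. A link of such letters to the levels was not tested.
Cox6b1: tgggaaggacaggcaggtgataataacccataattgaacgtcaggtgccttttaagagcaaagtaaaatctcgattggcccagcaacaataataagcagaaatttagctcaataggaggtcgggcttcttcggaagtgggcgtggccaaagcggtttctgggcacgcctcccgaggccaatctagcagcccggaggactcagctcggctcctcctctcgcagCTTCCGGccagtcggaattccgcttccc
Cox6b2: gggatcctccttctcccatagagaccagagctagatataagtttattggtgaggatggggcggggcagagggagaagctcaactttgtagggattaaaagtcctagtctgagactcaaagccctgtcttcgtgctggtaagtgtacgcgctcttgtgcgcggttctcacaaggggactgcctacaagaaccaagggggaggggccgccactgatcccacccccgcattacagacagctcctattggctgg

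Of the 88 genes, 70 had such an upstream window, and 27025 genes in all did. Read on both strands, CCGGAAG was in 15.7% of the members' windows and 7.1% of all windows, and the palindrome bound by NRF1 (GCGCA, any base, then GCGC) in 15.7% and 3.9%. GGCGGG, the GC box of SP1, was in 35 of the 70 and in 32.6% of all, CCAAT in 42.9% and 34.5%, ACGTG, the core of hypoxia response elements, in 18.6% and 16.6%, and TATAAA in 8.6% of the members' windows and 13% of all. A match of letters is a description and no binding was measured. *Ndufa4l2*, *Cox4i2* and *Cox6a2* had no window.

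Genes of the same pathway outside the 88 were counted from 6 lists. Between ABL and CONT, 0 genes were called in any of these lists in any class tested (4 subunits of complex II, 13 mitochondrially encoded subunits, other assembly factors, electron carriers and ATP exporters, the tricarboxylic acid cycle and regulators of mitochondrial biogenesis), and their median log2 changes in reticular cells were 0.27, 0.16, 0.02, 0.15, 0.22 and −0.15. In granulocytes 9 of 13 mitochondrially encoded subunits were called lower than in reticular cells and 0 higher, where 26.9% of all tested genes were called lower, with a median log2 change of −0.98 (*mt-Nd3* −1.69 ± 0.29), in the same fit that had 38 nuclear members higher. Without TMM all 13 were called lower, and on the plain CPM scale their sum was 0.158 to 0.313 times that of reticular cells. For the counts without TMM, the share of all tested genes was not counted. In erythroid cells 6 of 13 were lower with TMM, where 41.9% of all tested genes were, and 12 of 13 without it. In B-lineage cells 4 of 13 were lower, beside 30.6% of all tested genes, and in monocytes 2 of 13, beside 25.0%, so these counts were near or under the background. Of the tricarboxylic acid cycle, 12 of 18 genes were higher in erythroid cells and 1 lower with TMM, where 30.6% of all tested genes were higher and 41.9% lower, but 1 was higher and 5 lower without TMM. In granulocytes 4 of the 18 were higher and 2 lower with TMM (28.5% and 26.9% of all tested genes), and 0 higher and 13 lower without it. Of the electron carriers and ATP exporters, 5 of 8 were higher and 2 lower in erythroid cells with TMM, and 1 higher and 2 lower without it, and of complex II 3 of 4 were higher with TMM and 0 without it.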

How the data were processed

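Single-cell RNA-seq (10x Chromium) was run on 4 libraries. The authors ran Cell Ranger (3.0.0 in a matrix header) against mm10 with transgene sequences added and deposited raw UMI counts for all barcodes, unfiltered and not normalized. All other values were computed here. The 88 genes, the other lists and the tests were chosen with earlier results of these data known. Per-sample value columns left out numbered 0.

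Cells were barcodes with a minimum of 500 genes and a maximum of 20% mitochondrial UMIs in v2, or 1000 genes and 15% in v3, as in the study's methods. Their UMIs also had to reach 1/10 of the value that 99% of the top 3000 barcodes lie under. Doublets were not removed (Scrublet in scanpy 1.11.5 was an alternative). Libraries were clustered in Seurat 5.3.0 (R 4.3.3; 2000 variable genes, 30 components, 20 neighbours, resolution 0.8; mesenchymal cells integrated by CCA within a replicate), leaving out 183 features, among them the 88 genes, the listed genes and the transgenes. A class needed 3 markers detected in 10% of cells, a score of 0.25 and a margin of 0.1 (pseudocount 10 CPM), and 136 of 141 markers were found. Acp5-, Siglech-, Elane- and Acta2-led groups were added after the data were seen. Free RNA was estimated from droplets with at most 300 UMIs.

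Counts were summed per library and class (at least 10 cells per library, and 3 libraries for a class test) and tested in edgeR 4.0.16 (quasi-likelihood, TMM, filter on low counts, Benjamini-Hochberg over all genes, 0.05), with the replicate as a block for ablation and the library as a block for classes and for the interaction. CONT and ABL of a replicate are the 2 femurs of the same mice in the study's methods, and their deviations from the condition means correlated (0.72 in reticular and 0.45 in all mesenchymal cells), which includes the shared chemistry. Summed levels and shares are given per library with no test. The exact permutation test of 2 against 2 libraries cannot give p under 0.333. Fits were tested on simulated data, where the share of false calls was above the threshold in most fits, among them ablation in monocytes and the erythroid, B-lineage and pre-osteoblast class tests. Where thinned, cells were drawn down to 2000 UMIs, and shallower cells were left out.

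Named genes are members past the threshold (10 rises and 10 falls per test at most), the 2 with highest reticular CPM in complexes I, III, IV and V, and the isoform sets. Alternatives were other cell filters, doublet removal, tdTomato cells only, resolutions 0.4 and 1.5, members kept in the clustering, no low-count filter, no TMM, no replicate or library block, DESeq2 1.42.0, free RNA subtracted and each library left out (for class tests chosen after the data were seen). Coordinates are GRCm38 (GENCODE M21). Intervals used scipy 1.17.1.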

Additional observations from a re-analysis of the deposited data

Results flagged for a closer look

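The median log2 ratio of ABL to CONT over the members was above 0 in both replicates in all mesenchymal cells, reticular cells and granulocytes and below 0 in both in monocytes. In replicate 1 it lay near 0 in the first 3, at 0.02, 0.03 and 0.01, and in erythroid cells it was −0.03 in replicate 1 and 0.61 in replicate 2. The mean over replicates was 0.488 in all mesenchymal cells and −0.184 in monocytes, a difference of 0.672. It was 0.457 in granulocytes, 0.641 above monocytes. In reticular cells it was 0.318, so monocytes stood at −0.502 relative to them. None of these differences was tested. The summed level of the members in monocytes of replicate 2 was 1.07 times as high in ABL as in CONT, against the sign of that median, and the monocyte class held different clusters in the 4 libraries, with *Elane*-led cells in CONT replicate 2.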

How the results depend on the processing

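In reticular cells 1 member passed between ABL and CONT with no low-count filter. In all mesenchymal cells 0 passed with the stricter filter, the members kept in the clustering, resolutions 0.4 and 1.5, DESeq2 or no replicate block. In monocytes 0 passed under the study's filter alone or with no replicate block, and 1 with the stricter filter, doublets removed, resolution 1.5 or DESeq2. The median change of the members less that of all genes ran from 0.0236 to 0.615 in reticular and from 0.0161 to 0.961 in all mesenchymal cells when 1 replicate was left out, and without the replicate block it was 0.272 and 0.44.

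Against reticular cells, the count of members higher in erythroid cells was 4 without TMM and 55 to 63 without single libraries or a whole replicate. In granulocytes it was 21 at resolution 0.4, 1 without TMM, 23 with no low-count filter, 18 with no block and 10 to 52 in the same way, and *Cox6b1* reversed to −0.18 without TMM. In monocytes it was 4 at resolution 0.4, 18 without TMM, 6 with no block and 1 to 21 without libraries or a replicate. In B-lineage cells it was 16 under the study's filter, 17 with no low-count filter, 5 with no block and 7 to 28 likewise. In endothelial cells it was 1 under the study's filter, with doublets removed, members kept, tdTomato cells only, DESeq2 or no low-count filter, 0 with no block and 1 to 3 without libraries or a replicate. In pre-osteoblasts it was 1 at resolution 1.5 and 0 to 0 without them, and in periosteal cells 1 to 1. The mean log2 ratio of the summed level in granulocytes was 0.479 at resolution 1.5, and the *Cox6a2* share in Siglech-led cells 70.8% with free RNA subtracted. The cause of these shifts was not tested, except that no TMM removes the scaling and a library left out removes samples.

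Over the 60 genes named from the tests, 955 values kept direction and call, 116 kept direction only, 1 reversed, and 6 kept direction but had no test. Some alternatives gave no value, such as the interaction at resolution 0.4, where a library had too few cells.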
